A study of Rattus norvegicus with 22 samples.

Results

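A set of 10 genes of the signalling machinery of taste cells was followed in paired tongue tissue, and 9 of the 10 were found on the array. They were chosen by name: the sweet and umami receptor subunits Tas1r1, Tas1r2 and Tas1r3, the transduction genes Gnat3, Plcb2, Itpr3 and Trpm5 of the type II cells, Pkd2l1 and Car4 of the type III cells, and Entpd2 of the type I cells. A probe was taken where its gene symbol equalled a member, and the brightest probe over the 22 arrays stood for a gene with several. No probe carried Tas1r2 by symbol or by RefSeq accession, so that gene was not analysed here. The array names 19190 gene symbols with 30367 probes in all.

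The samples were 11 pairs of oral squamous cell carcinoma (OSCC) and adjacent phenotypically normal tongue, each pair from 1 male F344 rat, an inbred strain. The rats drank water with the carcinogen 4-nitroquinoline-1-oxide (4-NQO) at 20 ppm for 10 weeks, and their age was approximately 33 weeks. All 22 sample titles begin with untreated, and the treatment recorded for normal pieces is none, whereas by the protocol both tissues of a pair came from 1 rat that drank the carcinogen. There was thus no unexposed animal, and each value compares a tumor with tissue that saw the same exposure. The labels do not say from which part of the tongue a piece came.

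Taste buds hold 3 kinds of mature cell. Type II cells detect sweet, umami or bitter compounds with G protein-coupled receptors, and the signal runs through the G protein gustducin, phospholipase C beta 2, the inositol trisphosphate receptor type 3 and the cation channel Trpm5. Type III cells respond to sour stimuli and form synapses, and type I cells wrap the others and degrade the transmitter ATP. Taste buds are a small part of the tongue, in papillae, and von Ebner glands open into the trenches of the papillae at its back and sides. Vegp2, a lipocalin secreted by these glands, was therefore read beside the taste genes.

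Each array was read in 1 color, and a level is the log2 of the background-subtracted signal minus the log2 of the 75th percentile of that array. This percentile was 236.8 to 654.9 signal units in normal tissue and 338.7 to 1414 in OSCC. A value was taken as detected where the scanner software called the spot well above background, which held for 48.4% to 56.1% of probes in normal tissue and 52.3% to 65.5% in OSCC. Elsewhere, above background means this flag, and a value without it can still be a measured signal. All normal arrays lay on 3 slides and all OSCC arrays on 4 others, and all normal arrays and the OSCC of rats 4 and 9 were scanned on 1 day, the other 9 OSCC on another. A gene was called at an adjusted p below 0.05 in limma with a change of at least 2-fold, and 13.8% of all probes were called, 6.86% higher and 6.97% lower in OSCC. The median difference over all probes was -0.24.

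Because the meaning of a low signal rests on what a probe reads, some probes of the receptor, transduction and type III genes are given here as deposited. Each has 60 bases, in lower case, with its position in rat assembly rn4 as annotated on the array. The probes of Gnat3, Trpm5, Car4 and Entpd2 and the second probe of Pkd2l1 are not printed.
Tas1r1, chr5:169256748-169256807, minus strand: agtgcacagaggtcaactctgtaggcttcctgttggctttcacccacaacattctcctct
Tas1r3, chr5:172718551-172718610, minus strand: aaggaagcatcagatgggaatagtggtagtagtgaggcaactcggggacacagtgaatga
Plcb2, brighter probe, chr3:105206039-105206187, minus strand: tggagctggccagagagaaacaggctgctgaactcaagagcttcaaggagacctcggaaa
Plcb2, dimmer probe, chr3:105206006-105206065, minus strand: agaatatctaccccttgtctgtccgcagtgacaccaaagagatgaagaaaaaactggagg
Itpr3, chr20:5355438-5356361, plus strand: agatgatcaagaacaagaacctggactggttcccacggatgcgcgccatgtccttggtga
Pkd2l1, brighter probe, chr1:249083143-249083202, plus strand: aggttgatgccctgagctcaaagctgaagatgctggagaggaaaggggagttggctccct
The Itpr3 probe spans 924 bases of the genome and the brighter Plcb2 probe 149, so that both cross an intron in this annotation. The 2 Plcb2 probes lie at overlapping annotated positions but share no run longer than 5 bases.

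Detection divided the 9 genes into 3 groups. Itpr3, Car4 and Entpd2 were well above background on all 22 arrays, as was 49.9% of all gene symbols by their brightest probe. Tas1r1 was detected on 9 normal and 3 OSCC arrays, and Plcb2 on no normal array and 6 OSCC arrays. Gnat3 was detected on 2 OSCC arrays, Tas1r3 on 1 array of each tissue, Pkd2l1 on 1 OSCC array and Trpm5 on none. On most arrays of a tissue (at least 6 of 11), 4 of the 9 genes were thus detected in normal tissue and 4 in OSCC, against 58.8% and 64.1% of all gene symbols. With the more permissive flag of the same software, which asks only that a spot be significantly above its background, both counts were 7. The shares above are for the stricter flag and cannot be set beside these counts.

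**Figure D1:**
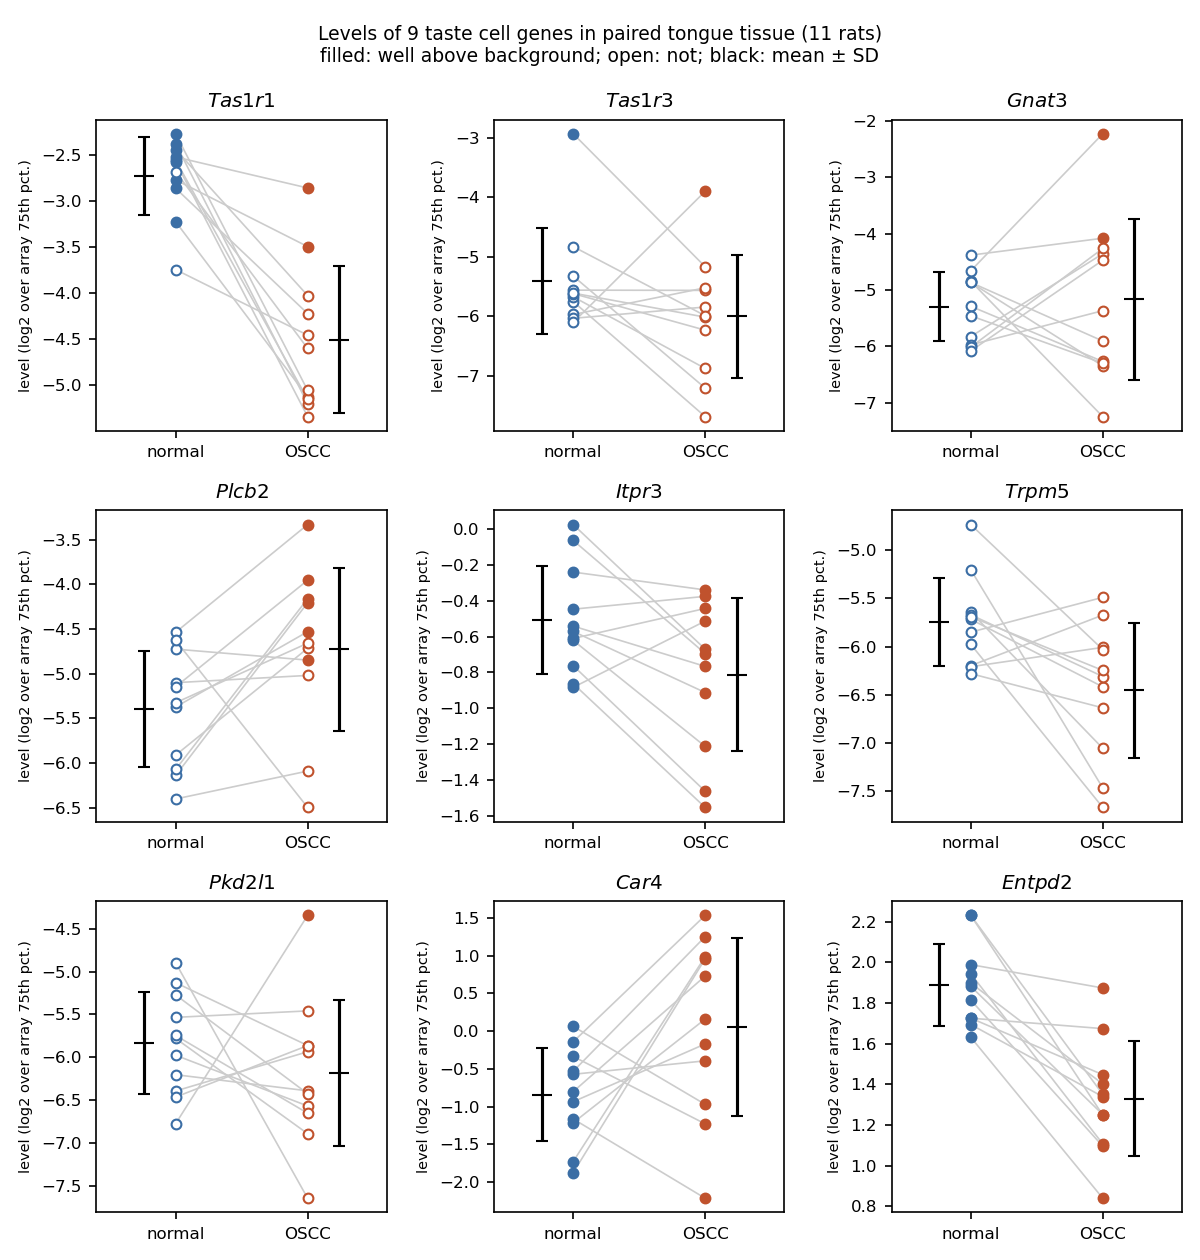
Level of each of 9 taste cell genes (log2 of signal over the array's 75th percentile) in normal tongue and OSCC, with lines joining the tissues of a rat and black bars for mean and SD (n = 11). Filled points were well above background and open points were not; Itpr3, Car4 and Entpd2 are filled throughout, and Tas1r1 was lower in OSCC in all 11 pairs.

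Among the receptors, Tas1r1, the subunit that makes the umami receptor when joined to Tas1r3, was the member called by the main test, and it was lower in OSCC. Its level ran from -3.75 to -2.27 with a median of -2.57 in normal tissue, and from -5.34 to -2.86 with a median of -4.60 in OSCC. The tissues overlapped through the OSCC of rats 22 and 24, at -2.86 and -3.50, which lay among the normal values. Before scaling the signal was 28.5 to 97.2 units, with a median of 63.7, in normal tissue and 17.1 to 60.4 units, with a median of 24.2, in OSCC, so that this probe was dim throughout. OSCC was 1.77 lower on the log2 scale (SE 0.26, 95% confidence interval -2.33 to -1.21), or 3.41-fold lower, with an adjusted p of 0.000515 in limma and the same direction in 11 of 11 rats. The signal before scaling was also lower in OSCC in 11 of 11 rats.

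The size of this difference rested on values near background. In OSCC only 3 arrays, those of rats 4, 22 and 24, had Tas1r1 well above background. A common floor at -3.01, the highest over arrays of the lowest detected level, was set after seeing the data. With lower values raised to it the difference was -0.35, but this also raised detected values of Tas1r1. They were those of rat 4, at -3.23 in normal tissue and -5.12 in OSCC, and of the OSCC of rat 24, at -3.50. With normexp, which models the background in place of the software's subtraction, the difference was -0.45 with an adjusted p of 0.606 in limma. With scan day as a term it was -2.33 with an adjusted p of 0.0855, in a fit that called 3 of the 30367 probes (0.00988%). Over all alternatives the adjusted p ran from 3.46e-05 to 0.606. In the 2 pairs scanned on 1 day, rats 4 and 9, Tas1r1 differed by -1.90 and -2.76. Before scaling its signal in normal tissue and OSCC was 47.6 and 40.5 units in rat 4 and 63.7 and 22.1 in rat 9. The 75th percentiles of the rat 4 arrays were 446.0 and 1414 units, so that the difference of rat 4 came mainly from the scaling. The OSCC of rats 22 and 24, with the highest Tas1r1 among the tumors, also had a summed level of 10 muscle markers of 2056 and 2412 times the array's 75th percentile, against 1223 to 2427 times in normal tissue and 73.4 to 894.0 times in the other OSCC but that of rat 21, at 2639.9.

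Tas1r3, the partner that Tas1r1 and Tas1r2 share, was detected in the normal tissue of rat 17 at -2.94 and in the OSCC of rat 24 at -3.90. On 19 of 22 arrays the software had put a substitute value in place of its signal, which it does where the signal cannot be told from background. The other 20 levels ran from -7.68 to -4.83 and carry no order. The fitted difference of -0.60 (adjusted p = 0.177, limma) was not called. Neither array with Tas1r3 was of the same rat as the other, and the OSCC of rat 24 was also 1 of the 3 with Tas1r1.

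Of the type II transduction genes, Gnat3, the alpha subunit of gustducin, was detected in the OSCC of rats 9 and 17, at levels of -4.08 and -2.23. The signals there were 52.8 and 72.3 units, against 6.73 to 18.2 units over the 11 normal pieces, none of which was detected. The other 9 OSCC had signals from 8.14 to 28.7 units. Gnat3 was higher in OSCC in 6 rats and lower in 5, and the mean difference was 0.13 (adjusted p = 0.814, limma). No fold is given, since the detection limit of the normal arrays lay above the mean OSCC level.

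Plcb2, the phospholipase that gustducin activates, was detected in the OSCC of rats 4, 9, 11, 13, 16 and 25 and in no normal piece. Its signal was 4.85 to 68.6 units with a median of 32.8 in OSCC and 5.67 to 19.6 units with a median of 8.46 in normal tissue. The level was higher in OSCC in 9 of 11 rats, by 0.67 on average (SE 0.30), with an adjusted p of 0.083 in limma. The second Plcb2 probe was detected on no array, so the detection rests on 1 probe, and that probe's normal levels were below the detection limit. Without rats 21, 22 and 24, the 3 with that much muscle signal in OSCC, the difference was 1.10 with an adjusted p of 0.00274, in a fit that called 22.8% of all probes in either direction and 8.69% of all probes as higher in OSCC. Over all alternatives the adjusted p ran from 0.00274 to 1. The floor on dim values, at -3.01, lay above every Plcb2 level, of which the highest was -3.33. The Plcb2 difference of 0 with the floor was therefore fixed by that setting and tests nothing. As the mean of both probes, of which the second was detected on no array, the difference was -0.00064.

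Phospholipase C beta 2 is also used by white blood cells. Of 12 white cell markers 10 were called higher in OSCC and none lower, with a median difference of 1.92 against -0.24 over all probes. Their summed level ran from 11.8 to 23.6 times the array's 75th percentile in normal tissue and from 17.2 to 210.4 times in OSCC, and none of the 12 went undetected on every array. By rat this sum was 74.4 to 210.4 in the OSCC of rats 4, 9, 11, 13, 16 and 25, in which Plcb2 was detected. Of the others it was 17.2 to 39.7 in rats 17, 21, 22 and 24 and 102.8 in rat 26. The OSCC arrays with Plcb2 detected were also the brighter ones, with 75th percentiles of 587.3 to 1414 units. In the other OSCC these were 338.7 to 533.0 units, and on the normal arrays 236.8 to 654.9. After scaling, the undetected Plcb2 levels of rats 26 and 17, at -4.66 and -4.72, lay above the detected level of rat 4, at -4.85. The part of white cells and of array brightness in the detection of Plcb2 was not tested.

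Itpr3, the calcium channel that phospholipase C opens through inositol trisphosphate, was detected in every piece. Its level was -0.88 to 0.03 with a median of -0.57 in normal tissue and -1.55 to -0.34 with a median of -0.69 in OSCC. The ranges overlapped from -0.88 to -0.34, and OSCC was lower in 8 of 11 rats. The mean difference of -0.31 (SE 0.13, adjusted p = 0.072, limma) did not pass the test. Against the median difference of all probes, -0.24, Itpr3 lay 0.06 lower.

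Trpm5, the channel that depolarizes type II cells, did not reach the detection limit in any of the 22 pieces. The software had replaced its signal on 21 of 22 arrays, and the values of 5.37 to 8.89 units describe that substitution. No level and no fold are therefore given for Trpm5 in either tissue.

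Of the type III genes, Pkd2l1, a channel subunit used as a marker of sour-sensing cells, was detected in the OSCC of rat 24, at -4.34 and 26.3 signal units. On the other 21 arrays its signal was 5.14 to 15.5 units, and the second Pkd2l1 probe was detected on no array. The fitted difference was -0.35 (adjusted p = 0.425, limma). The OSCC of rat 24 thus held Tas1r1, Tas1r3 and Pkd2l1 above background together. With 6 of the 9 members it was the array on which most members were detected. Of all probes on that array 63.5% were well above background, a share near that of the members.

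Car4, a carbonic anhydrase on the cell surface that is also made by capillary endothelium, was detected in every piece and varied more in OSCC than in normal tissue. The level was -1.88 to 0.06 with a median of -0.80 in normal tissue and -2.22 to 1.54 with a median of 0.16 in OSCC. OSCC was higher in 8 rats and lower in rats 9, 17 and 21. The mean difference of 0.90 (SE 0.39, 95% confidence interval 0.05 to 1.75) did not pass the test, with an adjusted p of 0.076 in limma. Without rat 17 it was 1.08 with an adjusted p of 0.0397, and without rat 21 it was 1.09 with an adjusted p of 0.0339, both past the threshold; over all alternatives the adjusted p ran from 0.0339 to 0.536. In the 2 pairs scanned on 1 day Car4 went both ways, by 2.72 in rat 4 and by -1.03 in rat 9.

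Entpd2, the ATP-degrading enzyme on type I cells, was detected in every piece and was lower in OSCC in 11 of 11 rats. The level was 1.63 to 2.23 with a median of 1.88 in normal tissue and 0.84 to 1.87 with a median of 1.34 in OSCC, so that the tissues overlapped over a narrow range. The difference was -0.56 (SE 0.12, 95% confidence interval -0.81 to -0.31; adjusted p = 0.00327, limma), which is 1.47-fold and short of the 2-fold limit. An adjusted p below 0.05 alone was reached by 44.0% of all probes. Before scaling the median signal was 1398 units in normal tissue and 1486 in OSCC, and the signal was higher in OSCC in 6 rats and lower in 5. Against the median difference of all probes Entpd2 lay 0.32 lower. Of the 2 other Entpd2 probes, also detected on all 22 arrays, 1 differed by -0.67 (adjusted p = 0.00133) and 1 by -0.22 (adjusted p = 0.408).

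Entpd2 is also made by cells of peripheral nerve. Of 9 peripheral nerve markers, from Schwann cells and axons, 5 were called lower in OSCC and none higher. Their median difference was -1.43 against -0.24 over all probes, and all 9 were above background on at least 1 array. Their summed level was 10.6 to 18.5 times the array's 75th percentile in normal tissue and 1.54 to 18.7 times in OSCC. Among the Schwann cell genes, Sox10 and Erbb3 went the other way, by 0.33 and 0.50 (adjusted p = 0.574 and 0.0114, limma), and were not called. Of the 10 muscle markers 6 were called lower and 1 higher. Of 10 endothelial markers none was called, and their summed level was 11.6 to 16.4 times and 5.65 to 16.9 times. In these bulk samples fewer cells of a type and less RNA per cell cannot be told apart, and the part of these cells in the values of Entpd2, Tas1r1 and Car4 was not tested.

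**Figure D2:**
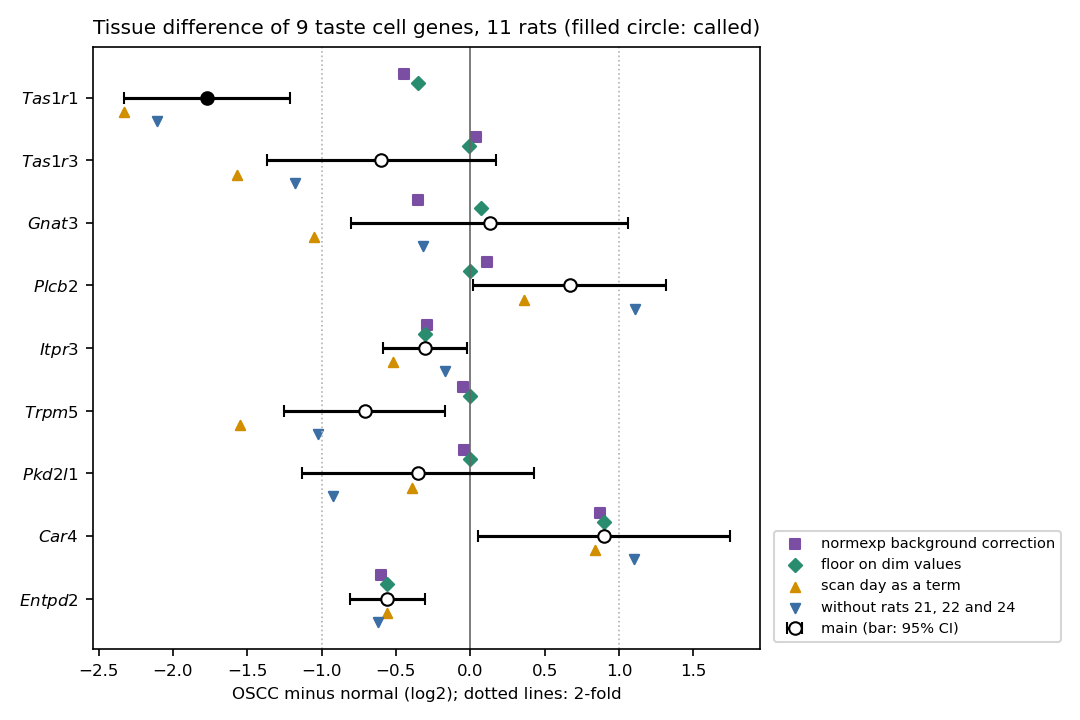
Difference between OSCC and normal tissue (log2, n = 11 rats) for each gene, as black circles with 95% confidence intervals from limma, filled where called, and the same difference under 4 other settings. Tas1r1 is the filled circle, at -1.77, and moves to -0.45 and -0.35 where dim values are treated otherwise, while Itpr3, Car4 and Entpd2 stay on their side of 0 under all 4.

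Vegp2 differed between the pairs far more than any of the 9 genes. In OSCC it was detected in all 11 rats, at 0.10 to 10.2 with a median of 5.75, and in normal tissue it was detected in rats 11, 21, 22 and 25, at -3.92 to -0.17. The other 7 normal pieces had Vegp2 at -6.03 to -2.99, not well above background. The within-rat difference was 10.4 to 15.4 in rats 4, 9, 13, 16, 17 and 24 and 2.84 to 5.92 in rats 11, 21, 22, 25 and 26, with a gap between the clusters of 35.8% of the whole range. With a gap above 30% of the range the rule was to use the larger cluster alone, so a relation over the pairs was computed within its 6 rats.

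Both OSCC in which Gnat3 was detected, those of rats 9 and 17, had high Vegp2, at 8.79 and 10.2. The OSCC of rats 4, 16 and 24, at 8.08, 9.44 and 9.47, had high Vegp2 too and no detected Gnat3. Before scaling the Vegp2 signal of these 5 pieces was 376903 to 407608 units, nearly flat, while their 75th percentiles were 338.7 to 1414, so that the order of their Vegp2 levels came mainly from the scaling that every other gene on the array shares. No spot of this probe was marked as saturated. In all 6 rats of the larger cluster Vegp2 was also undetected in the normal piece, and Gnat3 was detected on 2 of their 12 arrays. No correlation with Vegp2 within these 6 rats is therefore given.

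In the fit to these 6 rats no probe of 30366 passed an adjusted p of 0.05 in limma, while 11.9% had an unadjusted p below 0.05. For the members detected on at least 11 arrays the slope per log2 unit of Vegp2 was 0.29 for Tas1r1, 0.13 for Itpr3, -0.74 for Car4 and 0.13 for Entpd2, with adjusted p of 0.445, 0.565, 0.305 and 0.479. On simulated data of this design 31.5% of probes with a slope of 1 were called, so that a relation of this size was often not detectable with 6 rats. The slopes of the members also rest on the same scaled order of Vegp2 and the same normal pieces without detected Vegp2. They therefore cannot decide whether a member follows Vegp2.

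In the Vegp2 levels of the 11 OSCC the widest gap was 29.1% of the range, just short of the 30% set for separate clusters. Levels ran from 0.10 to 1.46 below this gap and from 4.40 to 10.2 above it. How far slopes and correlations over all 11 OSCC rest on this gap was not tested. The levels also include the 5 pieces of nearly flat Vegp2 signal. Over these levels the Vegp2 slope of 113 probes (0.372%) was called, all in the same direction as Vegp2. Among them were 8 of the 11 other genes of the gland list and none of the 9 taste genes, whose adjusted p was 1.00 throughout. Correlations were computed for all 9 genes. Gnat3, with 2 of 11 values above background, had r of 0.46 and rho of 0.49 (permutation p = 0.139 and 0.128, n = 11) and Entpd2 r of 0.48 and rho of 0.58 (permutation p = 0.137 and 0.065). Without the 2 OSCC farthest from the median of Vegp2 these r were 0.36 and 0.04. Car4 had r of -0.20, Tas1r1 of -0.07 and Itpr3 of 0.01 (permutation p = 0.556, 0.839 and 0.979). In normal tissue the 4 pieces with detected Vegp2 had Tas1r1 above background, as did 5 of the 7 without, and none of the 4 had Gnat3, Tas1r3 or Pkd2l1.

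**Figure D3:**
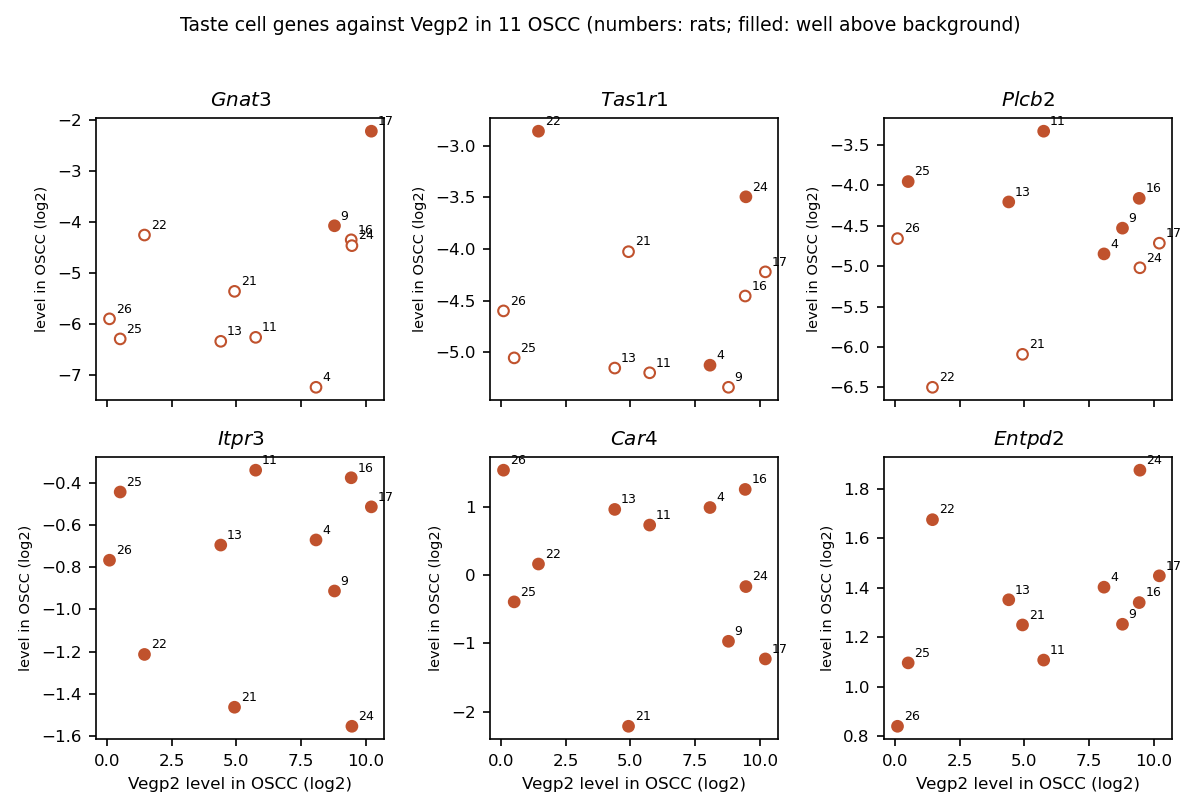
Level of 6 taste cell genes (vertical axis, log2) against the level of Vegp2 (horizontal axis, log2) in the 11 OSCC, each point 1 rat with its number and filled where the gene was well above background. Gnat3 is filled in rats 9 and 17, at Vegp2 levels of 8.79 and 10.2, and no panel shows a slope that passed the test.

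Other genes of taste buds were read from fixed lists, to set beside the members. Of 64 further taste genes on the array 1 was called higher in OSCC and 7 lower, against 6.86% and 6.97% of all probes, and 39 were not above background on any array. The median difference of the 64 was -0.52, against -0.24 over all probes. Bitter receptors make up 31 of them, of which 30 were detected on no array and 1, Tas2r123, was detected on 1 OSCC array. None of the 31 was called.

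Within the type II list Ascl2, a transcription factor, was lower in OSCC by 1.67 on the log2 scale, or 3.19-fold (adjusted p = 0.00067, limma). Pou2f3, the factor that specifies type II cells and tuft cells, was lower by 1.22 (median -2.10 and -3.15, adjusted p = 0.00226). Before scaling, the signal of Ascl2 was lower in OSCC in 9 rats and higher in 2. That of Pou2f3 was lower in 6 and higher in 5, so that its difference rested largely on the scaling. Gng13, the gamma subunit that works with gustducin, was called higher (adjusted p = 0.0238), and it was above background on 6 OSCC arrays and no normal array, at least 1.15-fold higher. The call of Gng13 was lost without rat 4 or rat 9, with adjusted p of 0.054 and 0.0557.

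Of the type III list Snap25, a synaptic protein, was called lower (adjusted p = 0.0308), with 2 normal arrays and no OSCC array above background, at least 1.11-fold. Its call was lost without rat 4, 9, 11, 16, 25 or 26 in turn, with an adjusted p of 0.0165 to 0.0687 over the rats left out. Of the salt and nerve list Scnn1a, a subunit of the epithelial sodium channel, was lower by 1.12 (adjusted p = 0.00375), and P2rx2, a receptor of the taste nerve for ATP, was called lower (adjusted p = 0.00594) with 8 normal and 3 OSCC arrays above background. The difference of P2rx2 was -0.36 with the floor and -0.58 with normexp, with adjusted p of 0.179 and 0.435, so that no fold is given. Scnn1b and Scnn1g, the partner subunits of Scnn1a, had differences of 0.76 and 0.95 and were not called. Scnn1a fell short of 2-fold without rat 4 (-0.96) or rat 24 (-0.99), and its signal before scaling was lower in OSCC in 6 rats and higher in 5. Of the progenitor list Gli1, a target of hedgehog signalling, was lower by 1.25 (adjusted p = 0.00151, limma). Its signal before scaling was lower in OSCC in 7 rats and higher in 4. Lgr6 was called at an adjusted p of 0.00379 in limma but was not above background on any array, so that no fold is given. The call of Lgr6 was lost without rat 4 or rat 9. None of the 4 type I genes was called. Of the 8 calls in these lists, that of Ascl2 held with normexp, those of Ascl2 and Scnn1a held with the floor, and none held with scan day as a term.

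**Figure D4:**
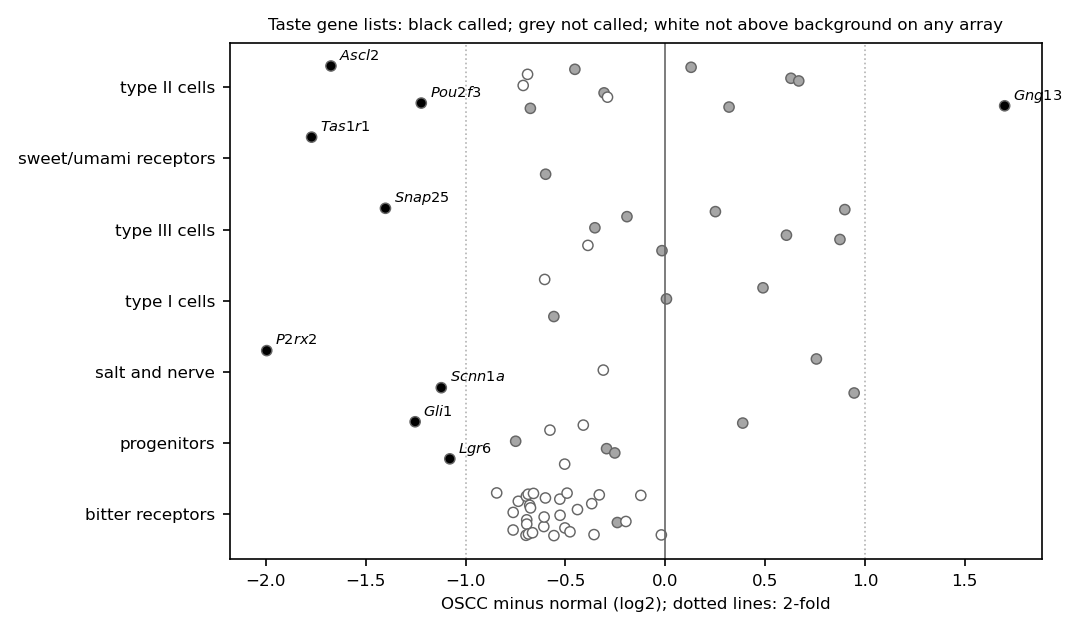
Difference between OSCC and normal tissue (log2, n = 11 rats) for the genes of 7 taste lists, members included, 1 point a gene: black where called, grey where not, white where the gene was not above background on any array. Named points were called; Gng13 is the one to the right of 0, and the bitter receptors are white but for 1.

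The genes whose within-rat differences were most like those of a member were sought among 11678 other gene symbols detected on at least 11 arrays, over the 11 rats. For Tas1r1 they were Trub2 (r = 0.96), Gripap1 (r = 0.96) and Gga1 (r = 0.95), and for Itpr3 they were Acy3 (r = 0.96), Six5 (r = 0.96) and Vps54 (r = 0.94). For Car4 they were Tmem204 (r = 0.95), Tmem88 (r = 0.89) and Gja4 (r = 0.88). For Entpd2 they included Cmtm5 (r = 0.96) and Fahd1 (r = 0.92). No taste gene of the lists was among those named. The points share rats, slides and scan days, and with so many genes compared over 11 rats r of this size is a description.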

How the data were processed

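The authors hybridized 1 sample to each one-color Agilent rat array and read it with Feature Extraction 9.5.3.1, so that the deposited intensity values are background-subtracted, linear and not scaled between arrays. A second deposited table, read as an alternative, holds each value as a ratio to its array's 75th percentile. Control spots and 9196 outlier spots (0.975%) were left out, repeated spots were averaged as log2 values, and each array's 75th percentile was taken off on the log2 scale. Dim probes were kept. The tissue difference was fitted with limma 3.58.1 (R 4.3.3), the rat as a block, since both tissues came from 1 animal; deviations of the tissues of a rat correlated between -0.21 and 0.24. Benjamini-Hochberg adjustment covered all 30367 probes. For Vegp2, limma was fitted to the within-rat differences, and correlations used permutations (100000 with 11 rats) in Python. On simulated data 98.0% of 200 probes changed by 3 log2 units were called. A gene undetected throughout 1 tissue has its fold given as a lower limit, against the lowest detected signal of each array. Precision is limited by the number of arrays. Named were all members, Vegp2, up to 4 called genes a list by size, the 3 genes most like each member detected on at least 11 arrays, and, chosen after their values were seen, Tas2r123, Scnn1b and Scnn1g. The members and lists were chosen with earlier results of these data known. Names are those of the array. A few results of this rule are not reported here.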

Additional observations from a re-analysis of the deposited data

How the results depend on the processing

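Tas1r1 was the 1 member called, and it was again the 1 called without the rat as a replicate block (1 member and 4227 probes called), with slide as a random block, with pairs scanned on different days and with the methods' t-test, unadjusted or adjusted. No member was called with normexp, the floor or scan day as a term (0 in each). These settings called 1705, 2457 and 3 probes in place of 4201, and 1, 2 and 0 of the 64 further taste genes in place of 8. Scan day and tissue overlap in all but 2 OSCC, and wholly in the pairs scanned on different days, while each slide held a single tissue. Neither those pairs nor slide as a random block can therefore separate tissue from scan day or slide. Without rats 21, 22 and 24, 4 members (Trpm5, Plcb2, Tas1r1 and Tas1r3), 16 further taste genes and 6924 probes were called, though Trpm5 and Tas1r3 were mostly substitute values. The further taste genes called were 5 without dim probes, where fewer were tested, and 4 in pairs scanned on different days. With each rat left out in turn 1 to 2 members, 4 to 9 further taste genes (4 without rat 4 and 5 without rat 9) and 3649 to 4799 probes were called. The difference of Gnat3 turned to -0.35 with normexp, -0.072 with the array median, -1.05 with scan day and -0.32 without rats 21, 22 and 24, and ran from -0.10 to 0.38 with 1 rat left out; that of Tas1r3 was 0.041 with normexp. The cause was not tested. Scaling moved the median of all probes from -0.44 (array median) to -0.03 (quantile). No setting called a member in relation to Vegp2, nor did any with 1 rat left out. Probes called there were 0 in the 6 rats, 42 with normexp, 167 with the array median, 32 with the deposited ratios, 83 without dim probes, 104 over all 11 rats, 113 in OSCC levels and 11 in those with the floor; the last 3 were chosen after seeing the data, except that OSCC levels were planned for the members. The floor, Vegp1, the gland list and pairs of different days put other rats in the larger cluster, and slopes turned there: for Itpr3 -0.12, -0.10, -0.12 and -0.15, for Car4 0.25, 0.32 and 0.093, for Entpd2 -0.057, -0.0072 and -0.054 under the first 3, and for Tas1r1 -0.0079 and -0.048 with Vegp1 and the gland list and -0.014 in OSCC levels. The permissive detection flag gave 7 members in each tissue, a count given without the share of all gene symbols under that flag.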
